A study of Mus musculus with 51 samples.

Results

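The regions described here are 7529 bivalent peaks of the mouse epiblast at embryonic day 6.5, places where trimethylation of histone H3 at lysine 4 (H3K4me3) and at lysine 27 (H3K27me3) were both found. They were selected on the peaks called in wild-type epiblast, so those H3K4me3 and H3K27me3 values describe the choice and were not tested. They are the autosomal epiblast H3K4me3 peaks that overlap, by at least 1 base, an H3K27me3 peak of B6/CAST epiblast and an H3K27me3 peak of CAST/B6 epiblast. They make up 22.6% of the 33329 autosomal epiblast H3K4me3 peaks. The 25800 H3K4me3 peaks outside the rule are called the other peaks. Of the 7529, 4817 (64.0%) contain an annotated transcription start site and are promoters in the strict sense, against 36.6% of the other peaks. The remaining 2712 contain none and lay at a median distance of 14.2 kb from the nearest start site.

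The chromatin came from 3 crosses, named mother first. B6/CAST embryos had C57BL6/Babr mothers and CAST/Ei fathers, CAST/B6 embryos came from the reverse cross, and both were wild type without treatment. The matDKO/CAST embryos had mothers on a B6/129 background that were Dnmt3a floxed/floxed, Dnmt3b floxed/floxed and carried Zp3-cre, a recombinase expressed in growing oocytes, and had CAST fathers. They inherited no oocyte DNA methylation and were heterozygous, Dnmt3a -/+ and Dnmt3b -/+. Their maternal genome also differed from B6/CAST in carrying 129 sequence. Epiblast, which forms the embryo proper, and extra-embryonic ectoderm (ExE), which contributes to the placenta, were separated by hand. Each library was a pool of 4 epiblasts or 8 ExE, about 2500 cells, so the p-values given here measure the spread between pools. In pooled chromatin, both marks at a peak need not have lain in the same cell or on the same allele, and fewer marked cells cannot be told apart from less mark per cell. The 3 marks, H3K36me3 being the third, were measured in both tissues of each cross with 2 libraries per group, 36 in all, beside 15 input libraries.

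H3K4me3 is deposited at active and poised CpG-rich promoters by complexes of the COMPASS family, while H3K27me3 is deposited by Polycomb repressive complex 2 at genes held silent. Promoters that carry both are called bivalent and, in pluripotent cells, belong above all to transcription factors and signalling genes of later development. H3K36me3 is laid down over the bodies of transcribed genes behind the elongating polymerase.

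The bivalent peaks were longer and richer in CpG than the other peaks. Their median length was 4000 bp, with 982 of 10 kb or more, and that of the other peaks was 3000 bp. The ratio of observed to expected CpG was 0.394 over the bivalent and 0.289 over the other peaks (medians). Among peaks with a start site these ratios were 0.435 and 0.413, and among those without they were 0.320 and 0.243, so a higher ratio was seen in both classes. A protein-coding start lay in 60.5% of the bivalent and 33.3% of the other peaks. In all, 5048 of 20780 autosomal protein-coding genes (24.3%) had a start site inside a bivalent peak. Peaks of H3K36me3 in epiblast overlapped 6.42% of the bivalent and 19.98% of the other peaks.

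The promoter sequences of 8 genes on which the results below turn are printed here, as the 250 bases before the RefSeq start in GRCm38.p6, read 5′ to 3′ on the gene's strand with every CpG in capitals. In ExE, Ddah1 and Cdx2 had lower H3K27me3, Ddah1 and Bmp8b had higher H3K4me3, Fgf4 and Otx2 differed in the opposite direction, and in epiblast Plagl1, Grb10 and Phlda2 carried H3K4me3 mostly on the allele of a single parent.
Ddah1, chr3:145758442-145758691, plus strand: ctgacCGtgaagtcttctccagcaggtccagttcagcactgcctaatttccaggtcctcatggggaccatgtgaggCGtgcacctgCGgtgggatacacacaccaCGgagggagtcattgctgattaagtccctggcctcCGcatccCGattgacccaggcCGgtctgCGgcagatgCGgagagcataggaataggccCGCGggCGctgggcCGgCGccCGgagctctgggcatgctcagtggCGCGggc
Cdx2, chr5:147307250-147307499, minus strand: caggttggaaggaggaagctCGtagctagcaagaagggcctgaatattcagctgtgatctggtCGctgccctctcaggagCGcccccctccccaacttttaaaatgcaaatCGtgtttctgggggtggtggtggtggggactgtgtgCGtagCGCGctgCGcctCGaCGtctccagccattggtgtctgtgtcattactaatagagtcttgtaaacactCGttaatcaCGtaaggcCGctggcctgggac
Bmp8b, chr4:123104911-123105160, plus strand: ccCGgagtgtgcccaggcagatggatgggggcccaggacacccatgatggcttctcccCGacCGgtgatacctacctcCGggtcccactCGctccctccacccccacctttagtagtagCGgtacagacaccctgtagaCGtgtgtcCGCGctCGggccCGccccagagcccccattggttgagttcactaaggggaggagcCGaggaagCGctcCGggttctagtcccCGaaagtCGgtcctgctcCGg
Fgf4, chr7:144861136-144861385, plus strand: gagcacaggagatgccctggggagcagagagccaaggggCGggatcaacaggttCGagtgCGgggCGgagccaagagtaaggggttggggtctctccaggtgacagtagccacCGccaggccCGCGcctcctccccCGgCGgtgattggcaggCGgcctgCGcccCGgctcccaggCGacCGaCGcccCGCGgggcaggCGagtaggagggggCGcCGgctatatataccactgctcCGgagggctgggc
Otx2, chr14:48665110-48665359, minus strand: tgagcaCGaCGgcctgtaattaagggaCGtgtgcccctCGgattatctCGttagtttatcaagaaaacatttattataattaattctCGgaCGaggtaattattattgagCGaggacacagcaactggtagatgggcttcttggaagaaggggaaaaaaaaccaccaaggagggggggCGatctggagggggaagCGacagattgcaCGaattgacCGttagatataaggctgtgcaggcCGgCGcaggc
Plagl1, chr10:13090582-13090831, plus strand: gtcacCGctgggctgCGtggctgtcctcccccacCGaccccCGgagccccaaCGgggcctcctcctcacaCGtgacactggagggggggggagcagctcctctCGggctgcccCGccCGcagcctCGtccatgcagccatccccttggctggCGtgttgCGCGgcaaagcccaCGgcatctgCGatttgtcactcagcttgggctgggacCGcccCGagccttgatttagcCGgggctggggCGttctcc
Grb10, chr11:12037421-12037670, minus strand: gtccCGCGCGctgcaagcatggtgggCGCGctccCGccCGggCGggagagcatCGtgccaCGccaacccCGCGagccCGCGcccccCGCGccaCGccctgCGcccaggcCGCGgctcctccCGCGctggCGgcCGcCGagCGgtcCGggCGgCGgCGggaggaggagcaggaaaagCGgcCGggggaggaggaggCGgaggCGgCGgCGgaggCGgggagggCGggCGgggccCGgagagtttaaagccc
Phlda2, chr7:143502525-143502774, minus strand: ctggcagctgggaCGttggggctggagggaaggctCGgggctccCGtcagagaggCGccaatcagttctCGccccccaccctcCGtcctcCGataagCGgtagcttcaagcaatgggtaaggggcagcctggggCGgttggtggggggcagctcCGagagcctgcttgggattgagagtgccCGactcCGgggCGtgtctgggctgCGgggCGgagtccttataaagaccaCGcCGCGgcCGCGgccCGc
These windows hold 13 to 40 CpGs, the fewest in Cdx2 and the most in Grb10, and their GC content ran from 48.4% in Otx2 to 81.2% in Grb10. Over the 31396 autosomal RefSeq promoter windows the median was 6 CpGs. It was 14 in the 5668 windows inside bivalent peaks, 15 in the 11592 inside other peaks and 2 in the 14136 outside any epiblast H3K4me3 peak. At promoters, therefore, CpG number set H3K4me3 peaks apart from unmarked windows, and differed little between bivalent and other peaks. Both strands were searched for GCCNNNGGC, the core letters of sites bound by AP-2 factors such as Tfap2c, and for TCAAGGTCA, the letters of the estrogen-related receptor element bound by Esrrb. GCCNNNGGC was present in 13.9% of all windows, 22.7% of those in bivalent peaks and 19.1% of those in other peaks, and among the 8 printed windows in Cdx2, Plagl1 and Phlda2. TCAAGGTCA was present in 0.382% of all windows and 0.176% of those in bivalent peaks, and in none of the 8.

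Depth per library, in M (mega) reads, was 4.01 to 17.9 for H3K4me3, 3.68 to 22.9 for H3K27me3, 2.09 to 12.6 for H3K36me3 and 7.17 to 90.6 for inputs. Summed H3K4me3 at epiblast markers, all 6 of which had a peak, was 50.8 to 69.8 RPKM in epiblast and 16.9 to 29.5 in ExE libraries. At the 8 ExE markers it was 36.6 to 55.9 and 53.6 to 75.3. At 9 visceral endoderm markers it was 33.5 to 53.6 in epiblast and 42.9 to 70.1 in ExE, ranges that overlap. Cubn, Apob and Hnf4a were apart and higher in ExE, Hnf4a with 1.91 to 6.15 and 6.88 to 11.1. Amn, Ttr and Apoa1 had higher medians in ExE with ranges that overlapped. Sox17 with 9.26 to 12.2 and 6.93 to 10.3, Foxa2 with 3.90 to 5.79 and 2.01 to 4.25 and Afp had lower medians there. Gene-body H3K36me3 was apart and higher in ExE at Amn, Cubn, Ttr, Apob, Hnf4a and Sox17, and overlapped at Afp. It was 0.608 to 1.27 RPKM in epiblast and 2.41 to 4.25 in ExE at Apob. Summed H3K4me3 at markers of decidua, stroma, endothelium and blood was 5.61 to 10.4 in epiblast and 3.79 to 8.30 in ExE, and 3 of these 8 genes had a peak. The part of visceral endoderm signal in the tissue differences was not tested. Gene-body signal checks the deletion little, since the embryos keep paternal copies: Dnmt3b input was 0.454 to 0.584 RPKM in wild-type and 0.447 to 0.564 in matDKO/CAST epiblast.

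The marks that defined the bivalent peaks in wild-type epiblast were found at similar heights in the matDKO/CAST epiblast, which took no part in choosing them. RPKM here is reads scaled to length in kilobases and to library depth, averaged over the 1 kb windows of a peak. Median H3K27me3 per library was 1.36 to 2.22 RPKM over the bivalent peaks in epiblast and 1.36 to 2.12 in ExE, against 0.272 to 0.337 and 0.272 to 0.388 over the other peaks (6 libraries per tissue). Median H3K4me3 was 3.73 to 5.65 RPKM in epiblast and 2.22 to 4.27 in ExE, against 0.860 to 1.66 and 0.844 to 1.83. Median H3K36me3 was low throughout, 0.287 to 0.397 RPKM in epiblast and 0.251 to 0.489 in ExE, below the inputs' 0.447 to 0.561 and 0.447 to 0.524 in most libraries. The wild-type libraries, whose epiblast peaks chose the regions, are part of these ranges. In matDKO/CAST alone, median H3K27me3 was 1.72 and 1.36 RPKM in epiblast and 1.93 and 1.36 in ExE, and median H3K4me3 was 5.65 and 4.74 against 3.32 and 3.52. Wild-type and matDKO/CAST epiblast ranked the bivalent peaks alike, with Spearman's rho of 0.918 for H3K27me3 and 0.982 for H3K4me3 across the 7529 peaks, which share libraries and length.

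**Figure D1:**
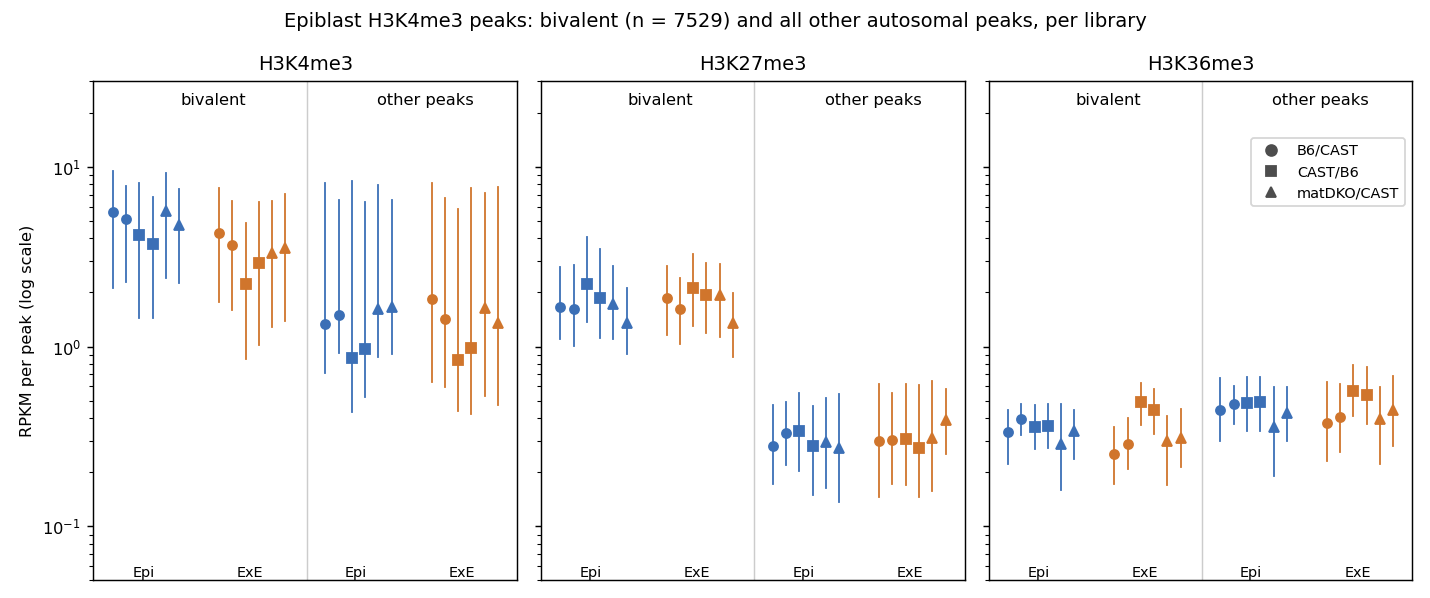
RPKM per peak (log scale) of H3K4me3, H3K27me3 and H3K36me3 in every library, for the bivalent and the other epiblast H3K4me3 peaks. Points are library medians and bars the interquartile range over peaks, blue for epiblast and orange for ExE, with the shape giving the cross. H3K27me3 medians of the bivalent peaks lie between 1.36 and 2.22 in both tissues, and those of the other peaks between 0.272 and 0.388.

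The rule's edge is gradual. Wild-type epiblast H3K27me3 over all bivalent peaks had a median of 1.84 RPKM, with 10th and 90th percentiles of 0.853 and 5.41. The 296 peaks that shared only 500 bp with an H3K27me3 peak had a median of 0.754, and the 455 other peaks within 500 bp of one in both crosses had 0.522. The 2208 with an H3K27me3 peak in a single cross had 0.788, and the 23592 with none had 0.284. The matDKO/CAST epiblast gave 1.53, 0.696, 0.476, 0.685 and 0.273 RPKM for the same classes in that order. An H3K27me3 peak in either cross would take in 9737 peaks, and coverage of at least 50% of the peak in both crosses would leave 6213.

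Highest in wild-type epiblast H3K27me3 were homeobox and forkhead genes of later organs. Foxe3, a forkhead factor of the lens, and Dmbx1, a homeobox factor of the brain, had means of 12.99 and 12.97 RPKM, followed by Msx3 with 12.6, the Hoxc cluster with 12.4 and Foxd2 with 12.3. The longest peaks were Hox clusters, whose genes set position along the body axis. The Hoxc peak at chr15:102909001-103043500 spanned 134.5 kb and the Hoxa peak at chr6:52149501-52278000 spanned 128.5 kb. The Hoxb peak at chr11:96250001-96356000 was next, then a histone gene cluster at chr13:23484001-23588000 with only 0.325 RPKM of H3K27me3, and Gse1 at chr8:120484501-120551000. The histone cluster shows that a long H3K4me3 peak could meet the rule with little H3K27me3 on average.

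How far bivalency was shared with the ExE was read first from the peaks called there in both wild-type crosses. Both marks had an ExE peak at 6000 of the 7529 (79.7%), against 13.6% of the other peaks. H3K27me3 alone was called at 1042 (13.8%, against 10.8% of the other peaks), H3K4me3 alone at 406 (5.39%, against 46.6%) and neither at 81 (1.08%, against 29.0%). The rule left peaks without epiblast H3K27me3 among the other peaks, which bears on these shares. Start sites were frequent in the both-marks and H3K4me3-only classes, 72.8% and 76.4%, and rare in the H3K27me3-only and neither classes, 12.9% and 4.94%. The CpG ratio followed, with medians of 0.415, 0.410, 0.278 and 0.215. These classes rest on whether a peak was called in ExE. In the test by peak given below, 1733 of the 5668 RefSeq windows inside bivalent peaks lay in a peak with lower H3K4me3, and 492 in a peak with lower H3K27me3. Several windows can share a peak and so its test. Over peaks, the shares were 34.7% and 7.70% of all bivalent peaks, and 24.1% and 2.49% of all peaks. The balance is thus not particular to promoters. The classes depend on peak calls: counting a peak in either cross lowered the peaks without ExE H3K27me3 from 487 to 236 and those without ExE H3K4me3 from 1123 to 444.

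The same classes were followed in matDKO/CAST libraries, none of which entered the peak calls. In the H3K4me3-only class, median H3K27me3 was 0.952 RPKM in epiblast and 0.386 in ExE, and median H3K4me3 was 7.28 and 8.55. In the H3K27me3-only class, median H3K4me3 was 1.16 and 0.470, and median H3K27me3 was 1.30 and 1.63. In the both-marks class H3K27me3 was 1.67 and 1.76 and H3K4me3 5.99 and 4.12. Around the peak centres of the H3K4me3-only class, the mean H3K27me3 profile was 0.849 to 1.16 RPKM in the epiblast libraries and 0.417 to 0.447 in the ExE libraries. H3K36me3 at 10 kb from those centres was 0.506 to 0.545 in epiblast and 0.688 to 0.708 in ExE. The tissues did not overlap at either point.

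**Figure D2:**
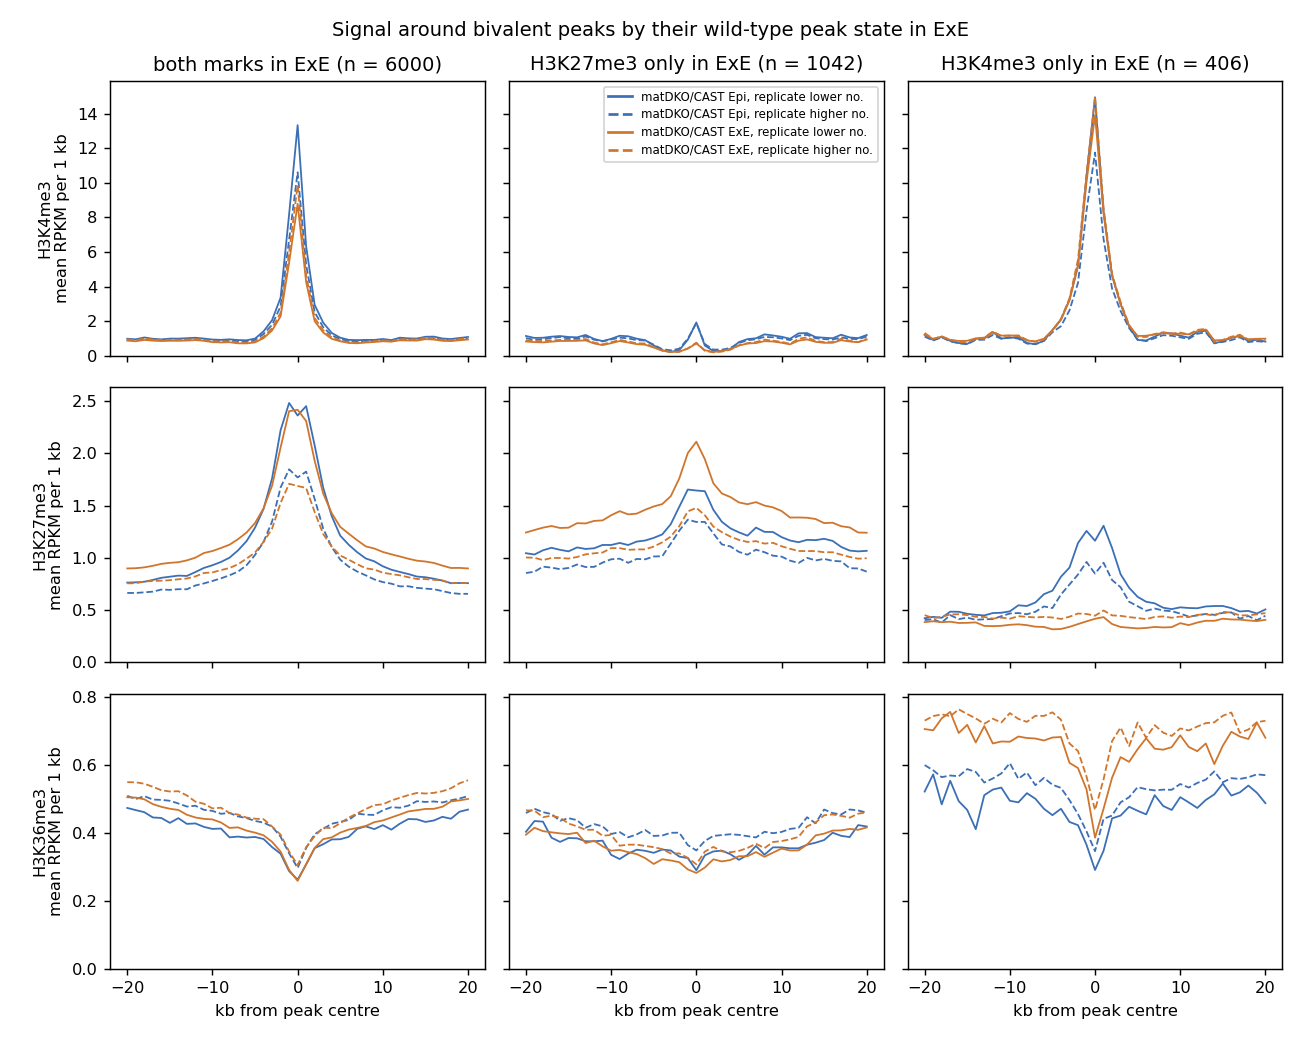
Mean RPKM per 1 kb of each mark (rows) from 20 kb before to 20 kb after the peak centre, in matDKO/CAST libraries, for bivalent peaks with both marks, H3K27me3 only or H3K4me3 only in wild-type ExE (columns). Blue lines are epiblast and orange lines ExE, solid and dashed for the 2 replicates. At the centre of the H3K4me3-only peaks, H3K27me3 was 0.849 to 1.16 in epiblast and 0.417 to 0.447 in ExE.

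Whether single peaks differed between tissues was tested in matDKO/CAST libraries, with limma on log2(RPKM + 0.5) over all 33329 autosomal peaks and Benjamini-Hochberg adjustment at 0.05. H3K27me3 was higher in ExE at 266 bivalent peaks (3.53%, where 4.9% of all peaks were) and lower at 580 (7.70%, where 2.49% of all were). Of the other peaks, 1367 (5.30%) were higher and 249 (0.965%) lower. The rule asked for H3K27me3 in epiblast, and matDKO/CAST epiblast ranked the peaks like wild type, so lower calls were favoured at bivalent peaks. The 23592 other peaks without an H3K27me3 peak had a median of 0.273 RPKM in matDKO/CAST epiblast and little to lose. The gap between these shares therefore cannot be read as a tissue difference alone. The median difference was -0.02 over bivalent and 0.11 over all peaks. Bivalent minus all was -0.13, but turned to 0.13 with the replicate number as a block and to 0.05 without ExE replicate 3, and was between -0.33 and -0.04 under the other alternatives. Leaving out ExE replicate 2 gave 8 higher and 325 lower, ExE replicate 3 503 and 364, epiblast replicate 1 477 and 324, and epiblast replicate 2 53 and 624. With the replicate number as a block, although the numbers did not pair the libraries, the balance turned to 1698 higher and 387 lower (81.4% higher). Since only number 2 is present in both tissues of matDKO/CAST for this mark, that fit leaves the difference of the 2 libraries numbered 2. The share of higher among the called peaks was 31.4% without it, 15.8% after median centring (167 higher, 893 lower), 20.2% in a fit of these libraries alone (68 and 269) and 12.3% with edgeR's quasi-likelihood test (199 and 1422). In every leave-one-out and alternative setting alike, 167 of the 580 lower and 6 of the 266 higher peaks were called again. ExE H3K27me3 replicate 2 also had more signal on chromosome 17, by 0.36 on the log2 scale. There 26 of 359 bivalent peaks were higher (7.24%, against 3.35% of the 7170 elsewhere) and 35 lower (9.75%, against 7.60%). The part of that library in those calls was not tested. B6/CAST epiblast replicate 1 had more signal on chromosomes 3 and 11, by 0.25 and 0.26 for H3K27me3, 0.16 and 0.24 for H3K4me3 and 0.24 and 0.22 in its input. It entered the choice of peaks and the wild-type values, those of Ddah1 on chromosome 3 and Grb10 on chromosome 11 among them. The matDKO/CAST tissue differences took from it only a part of the shared estimate of spread.

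H3K4me3 was lower in ExE at 2612 bivalent peaks (34.7%, where 24.1% of all peaks were) and higher at 141 (1.87%, where 5.4% of all were). The other peaks gave 21.0% and 6.43%. All of these peaks were called in epiblast, so H3K4me3 found in ExE alone is absent from the test. That choice favours lower over higher calls, here and in the gene lists below, and its part was not tested. The median difference was -0.37 over bivalent and -0.17 over all peaks, and bivalent minus all was between -0.25 and -0.16 under every alternative. edgeR's quasi-likelihood test on reads, which differs in scaling and in test at once, gave a median of all peaks of 0.11, with 842 higher and 1999 lower bivalent peaks (29.6% higher among those called, against 5.12%). Quantile normalization gave 591 and 2340 (20.2%). The higher count also moved with libraries, to 59 without epiblast replicate 2 and 79 without ExE replicate 3. In all settings, 1272 of the 2612 and 28 of the 141 were called again.

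The marks' differences were combined per peak. H3K27me3 was lower and H3K4me3 higher at 41 peaks, H3K27me3 higher and H3K4me3 lower at 136, both lower at 74 and both higher at 2. The first class made up 0.545% of the bivalent and 0.147% of the other peaks, and the second 1.81% and 2.25%. Peaks with both lower made up 0.983% and 0.128%, and those with both higher 0.0266% and 0.171%. At 2402 peaks (31.9%, against 18.7% of the other peaks) H3K4me3 was lower with no call for H3K27me3, and at 4183 neither passed. The H3K4me3-only class of wild-type ExE held 182 of the 580 with lower H3K27me3 in matDKO/CAST (71 of 325 without ExE replicate 2). They were 44.8% of that class, against 1.26% of the 12012 other peaks with H3K4me3 alone in ExE, whose median H3K27me3 in matDKO/CAST epiblast was 0.209 RPKM against 0.952. It had none with higher H3K27me3 (limma, 0 at an unadjusted p under 0.05, and 0 with edgeR). The H3K27me3-only class had 530 peaks of 1042 with lower H3K4me3 and 8 with higher, a share of 50.9% lower against 45.3% of the 2794 other peaks of that class. A peak without a call for a mark is not shown to be alike in both tissues for it.

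**Figure D3:**
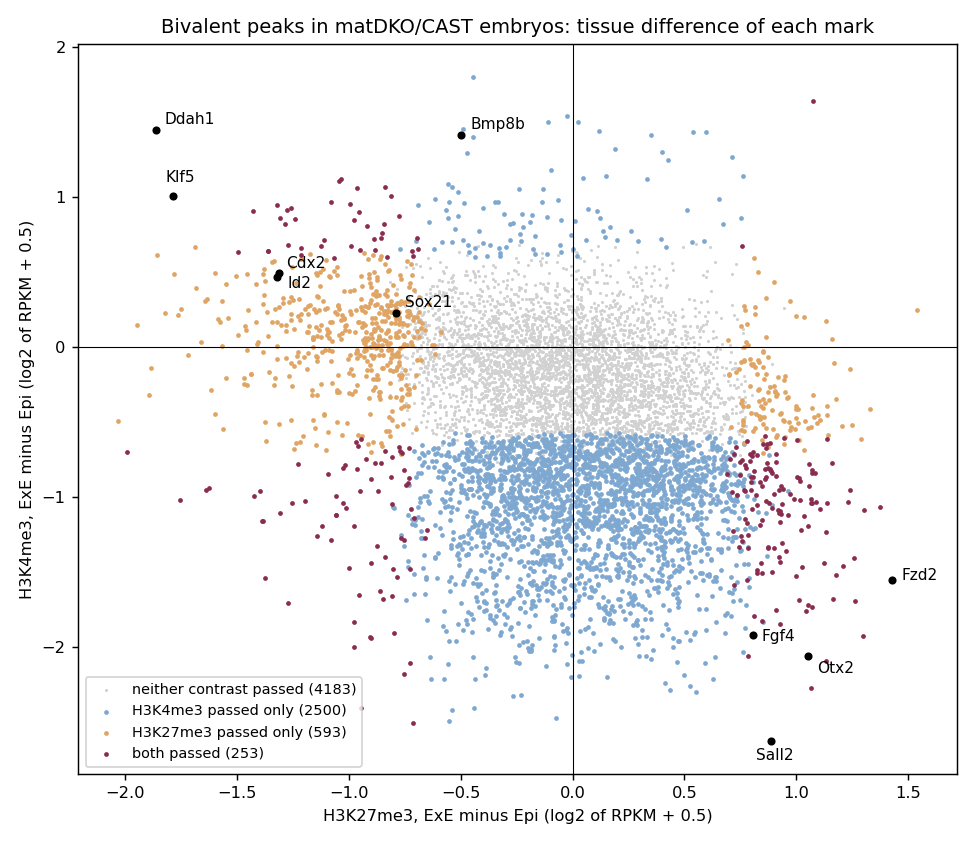
Difference of H3K4me3 (vertical) against difference of H3K27me3 (horizontal), ExE minus epiblast on log2(RPKM + 0.5), for each bivalent peak in matDKO/CAST embryos. Colours give which contrast passed an adjusted p of 0.05 in limma: neither at 4183, H3K4me3 only at 2500, H3K27me3 only at 593 and both at 253, with some promoters labelled by gene. Ddah1 and Klf5 lie at the upper left, Otx2, Fgf4, Sall2 and Fzd2 at the lower right.

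Many genes of the trophoblast had lower H3K27me3 in ExE. Of 27 peaks at 24 trophoblast genes, H3K27me3 was lower in ExE at 13 and higher at none (limma, 0 higher at an unadjusted p under 0.05, 0 with edgeR). H3K4me3 was higher at 6 and lower at 4, where 7.70% of all bivalent peaks had lower H3K27me3 and 1.87% higher H3K4me3. The list's median was -0.74 for H3K27me3, and -1.09 to -0.21 over the alternatives. For H3K4me3 it was 0.10, but -0.04 without epiblast replicate 2, -0.03 without ExE replicate 3 and up to 0.43 otherwise, so it had no stable sign. Among the 13 were Cdx2, Gata2, Tead4, Tfap2c, Klf5 and Id2, which are transcriptional regulators, the signals and receptors Fgfr2, Bmp4 and Wnt7b, and Ddah1, Cdh3 and Ppp2r2c. Cdx2, Tead4, Klf5, Id2, Fgfr2 and Ddah1 kept the H3K27me3 call with each library left out in turn. Others lost it without at least 1 library: Bmp4 without any of the 4, Tfap2c, Wnt7b and Ppp2r2c without epiblast replicate 1 or ExE replicate 3, Gata2 without epiblast replicate 1 or ExE replicate 2, and Cdh3 without epiblast replicate 2 or ExE replicate 3. Over the alternatives the count of lower H3K27me3 ran from 6 to 21, and that of higher H3K4me3 from 3 to 13. Parts of this list are known ExE genes, so its direction is no independent evidence.

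Ddah1, which encodes an enzyme that breaks down methylated arginine, had the most opposed marks of these promoters (chr3:145756501-145761000). Its H3K27me3 was 3.17 and 2.61 RPKM in matDKO/CAST epiblast and 0.312 and 0.563 in ExE, and H3K4me3 was 5.15 and 4.34 against 11.8 and 16.1. Both ExE libraries lay below both epiblast libraries for H3K27me3 and above them for H3K4me3. The differences were -1.86 ± 0.22 (SE, adjusted p = 0.000126 in limma) and 1.45 ± 0.25 (adjusted p = 3.73e-06). The wild-type libraries, which chose the peak, had H3K27me3 of 3.32, 4.40, 5.80 and 5.13 in epiblast and 0.833, 0.978, 1.40 and 1.20 in ExE.

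Klf5, a Krüppel-like factor needed in trophectoderm, had H3K27me3 of 2.97 and 2.34 RPKM in epiblast and 0.294 and 0.543 in ExE at chr14:99297001-99302000. Its H3K4me3 was 12.3 and 8.63 against 20.3 and 22.3. The tissues did not overlap for either mark, with differences of -1.79 ± 0.23 (adjusted p = 0.000335) and 1.01 ± 0.26 (adjusted p = 0.00153, not called without epiblast replicate 2). In wild-type ExE this promoter fell in the H3K4me3-only class.

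Cdx2, the caudal-type homeobox factor that maintains trophoblast stem cells, lay in a 27 kb peak at chr5:147291501-147318500. H3K27me3 was 4.78 and 2.86 RPKM in epiblast and 1.12 and 1.25 in ExE, a difference of -1.32 ± 0.24 (adjusted p = 0.00286). H3K4me3 was 5.95 and 4.25 against 6.73 and 7.61, a difference of 0.47 ± 0.24 that did not pass (adjusted p = 0.131). The values of both marks were apart between tissues, and the spread between libraries allowed a call for H3K27me3 alone. In wild type, Cdx2 H3K27me3 was 4.46, 6.70, 8.27 and 7.24 in epiblast and 1.19, 1.32, 1.30 and 1.21 in ExE.

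Tead4, a partner of YAP upstream of Cdx2, differed in H3K27me3 by -1.45 ± 0.24 (adjusted p = 0.00147, 2.42 and 1.50 RPKM against 0.310 and 0.461). Id2, an inhibitor of bHLH factors, differed by -1.31 ± 0.22 (adjusted p = 0.00152). Fgfr2, the receptor through which FGF4 maintains trophoblast stem cells, differed by -1.36 ± 0.22 (adjusted p = 0.0012), and its H3K4me3 by 0.64 ± 0.24 (adjusted p = 0.0318, not called without epiblast replicate 2 or ExE replicate 3). Each of these 3 had lower H3K27me3 in both ExE libraries. Tfap2c, an AP-2 factor of trophoblast, was nearer the threshold, with -0.88 ± 0.23 for H3K27me3 (adjusted p = 0.0258) and 0.65 for H3K4me3 (adjusted p = 0.0271, kept only when the library left out was ExE replicate 2).

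Bmp8b, a BMP ligand made by the ExE, had higher H3K4me3 there without a call for H3K27me3 (chr4:123103501-123107500). H3K4me3 was 5.29 and 3.89 RPKM in epiblast and 10.0 and 16.7 in ExE, a difference of 1.42 ± 0.25 (adjusted p = 5.59e-06). H3K27me3 was 3.89 and 2.45 against 2.79 and 1.47, -0.50 ± 0.26 (adjusted p = 0.241), and these values overlapped. Esrrb, an orphan nuclear receptor of trophoblast and pluripotent cells, held 3 bivalent peaks that went in opposite directions. At chr12:86468001-86475500 H3K4me3 was 1.15 and 1.56 RPKM in epiblast and 4.61 and 7.595 in ExE, the largest rise of any named bivalent promoter (1.80 ± 0.26, adjusted p = 1.61e-07). At chr12:86360501-86366500 it was lower in ExE (-1.42 ± 0.28, adjusted p = 4.82e-05), so the gene as a whole had no single direction.

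Ascl2, a bHLH factor of the placenta, was on the same list with lower H3K4me3 in ExE (-1.66, adjusted p = 8.42e-08) and 0.27 for H3K27me3. Its H3K4me3 in ExE also differed between matDKO/CAST and B6/CAST, as given at the end, and the same holds for T, Phlda2, Cdkn1c and Grb10.

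**Figure D4:**
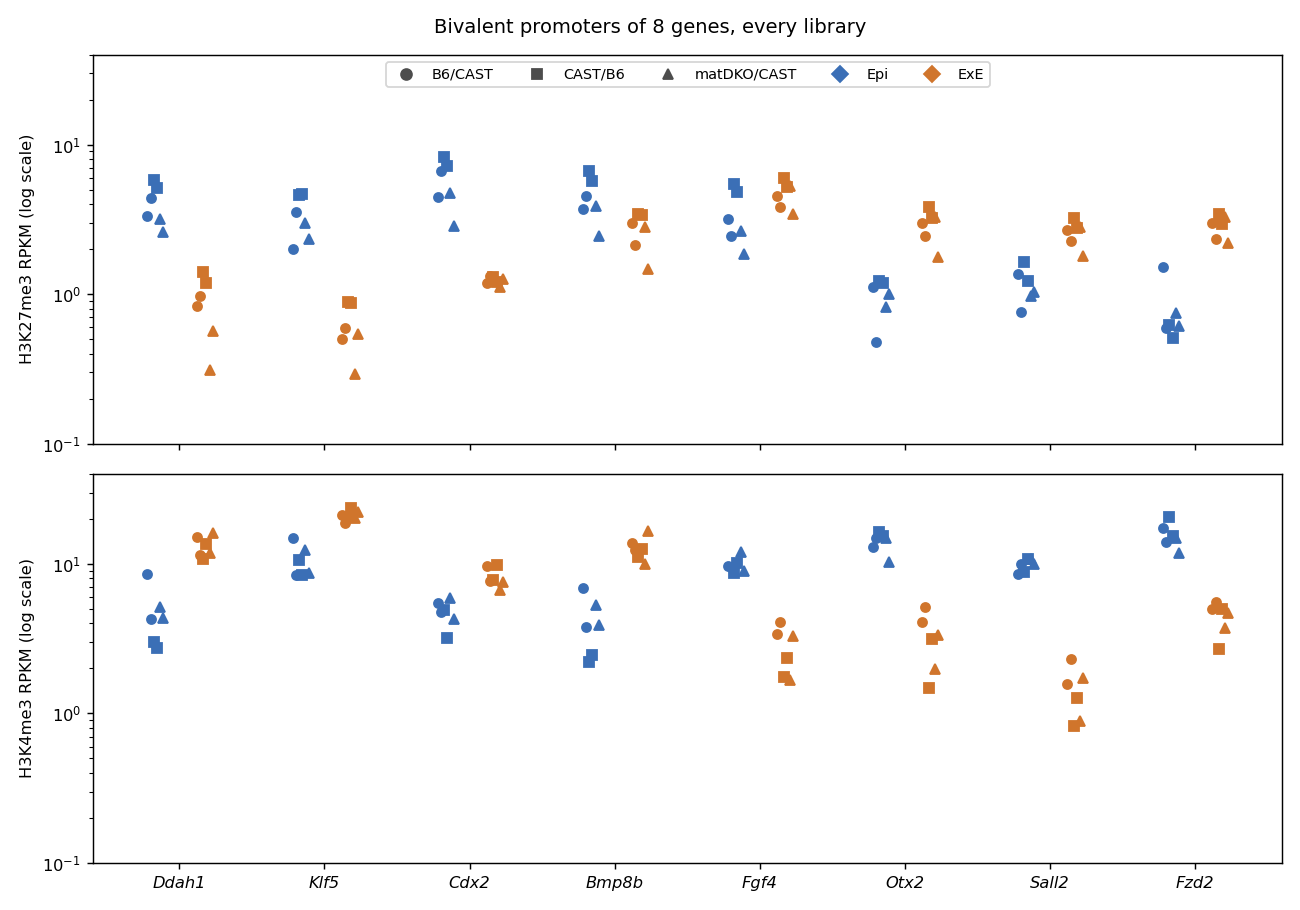
RPKM (log scale) of H3K27me3 (upper) and H3K4me3 (lower) in every library at the bivalent promoters of 8 genes. Colour gives the tissue and shape the cross. At Ddah1, Klf5 and Cdx2 the ExE libraries sit below the epiblast libraries for H3K27me3, and at Otx2, Sall2 and Fzd2 above them.

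Most peaks of epiblast pluripotency genes had lower H3K4me3 in ExE, and fewer had higher H3K27me3. Of 9 peaks at 10 genes, H3K27me3 was higher in ExE at 4 (Fgf4, Fgf15, Otx2 and Sall2) and lower at none (limma, 0 at an unadjusted p under 0.05, 0 with edgeR). H3K4me3 was lower at 6 and higher at none (0 and 0 by the same counts). No peak of the list was called lower in H3K27me3, or higher in H3K4me3, under any alternative, while the 4 higher calls became 0 without ExE replicate 2, 1 without epiblast replicate 2 or in the libraries of the contrast alone, and 3 with edgeR. Lower H3K4me3 was also the more frequent direction over all bivalent peaks, at 34.7%, and 3.53% of them had higher H3K27me3. The medians were 0.41 and -1.003. That of H3K27me3 was 0.09 without ExE replicate 2, 0.72 without ExE replicate 3 and 0.79 with the block, and that of H3K4me3 ran from -1.22 to -0.78.

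Otx2, a homeobox factor of the primed epiblast and later forebrain, had H3K27me3 of 0.824 and 1.00 RPKM in epiblast and 3.26 and 1.78 in ExE at chr14:48650501-48675500. H3K4me3 was 14.9 and 10.2 against 1.97 and 3.32. The tissues were apart for both marks, by 1.05 ± 0.26 (adjusted p = 0.0164, not called without ExE replicate 2) and -2.06 ± 0.25 (adjusted p = 1.21e-09). In wild type, H3K27me3 was 1.11, 0.478, 1.23 and 1.19 RPKM in epiblast and 2.97, 2.43, 3.85 and 3.21 in ExE.

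Fgf4, the epiblast ligand that acts on the ExE, had H3K27me3 of 2.64 and 1.86 RPKM in epiblast and 5.28 and 3.41 in ExE at chr7:144860001-144865500, with a difference of 0.81 ± 0.24 (adjusted p = 0.0423, not called without epiblast replicate 2 or ExE replicate 2). H3K4me3 was 12.1 and 8.94 against 1.67 and 3.30 (-1.92 ± 0.24, adjusted p = 2.87e-09). Both marks were apart between tissues, and the H3K4me3 call was far from the threshold. Its neighbour Fgf15 at chr7:144888001-144903000 gave 0.93 ± 0.24 (adjusted p = 0.021, not called without epiblast replicate 2 or ExE replicate 2) and -1.85 (adjusted p = 7.76e-09).

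Sall2, a zinc finger factor, had the largest fall of H3K4me3, from 10.7 and 10.0 to 0.894 and 1.73 RPKM (-2.63 ± 0.24, adjusted p = 6.51e-13), with H3K27me3 0.89 ± 0.24 (adjusted p = 0.0276, kept only when the library left out was ExE replicate 3). Sox2, a factor shared by epiblast and trophoblast stem cells, had H3K4me3 of 8.10 and 6.16 in epiblast and 2.74 and 3.90 in ExE (-1.003 ± 0.23, adjusted p = 0.000583) and 0.19 for H3K27me3, which did not pass. Its ExE libraries kept more H3K4me3 than those of Sall2.

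Among all bivalent promoters, Fzd2, a Frizzled receptor for WNT ligands, was the named gene whose higher H3K27me3 in ExE was called in every setting. It had 0.752 and 0.612 RPKM in epiblast and 3.27 and 2.18 in ExE (1.43 ± 0.26, adjusted p = 0.00243), and H3K4me3 of 15.0 and 11.8 against 3.75 and 4.70 (-1.55 ± 0.24, adjusted p = 7.12e-07). Prrt3 (1.26), Miat (1.21) and Plcd4 (1.18) came next among the rises, and none of these 3 was called without ExE replicate 2, nor Miat and Plcd4 without epiblast replicate 2. The deepest falls of H3K27me3 were at Cyp26a1/Cyp26c1, whose products degrade retinoic acid, with 5.45 and 3.57 RPKM in epiblast and 0.681 and 0.882 in ExE (-1.95 ± 0.24, adjusted p = 0.00023), while their H3K4me3 differed by 0.15 (adjusted p = 0.733). Ddah1, Usb1/Zfp319 (-1.82), Klf5, Slc25a4 (-1.78), Zc3hav1 (-1.76), C2cd2l/Dpagt1 (-1.72) and Sgk3 (-1.68) followed.

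Genes of later development often had less H3K4me3 in ExE, as did 34.7% of all bivalent peaks. For the homeobox and paired-box list, 97 of 100 genes had a bivalent peak, and of their 94 peaks H3K4me3 was lower at 69 (41 to 74 over the alternatives) and higher at none (limma, 0 at an unadjusted p under 0.05, 2 with edgeR). H3K27me3 was lower at 9 (2 to 34) and higher at 1 (0 to 8). Over all bivalent peaks, 7.70% had lower and 3.53% higher H3K27me3, the shares to set beside these counts and those of the next lists. H3K4me3 was lower at 28 of 42 peaks of bHLH genes, 15 of 27 of forkhead genes, 7 of 14 of Sox genes and 7 of 17 of GATA and T-box genes, with none higher in these 4 lists (limma, 1, 0, 1 and 0 at an unadjusted p under 0.05 and 3, 1, 3 and 2 with edgeR). H3K27me3 was lower at 2, 3, 1 and 6 of these peaks, in the same order, and higher at 1, 0, 2 and 0 (limma, 2, 1, 2 and 0 at an unadjusted p under 0.05 and 0, 0, 2 and 0 with edgeR). The lower counts were 14, 10, 3 and 9 with edgeR, and the higher counts 5, 5, 2 and 1 with the block, so these H3K27me3 counts depend on the setting. All 39 Hox genes lay in 8 bivalent peaks, of which 4 had lower H3K4me3 and none passed for H3K27me3 (limma, 5 lower at an unadjusted p under 0.05, and 5 lower with edgeR). For the Sox, GATA and T-box and Hox genes the counts of lower H3K4me3 were thus closer to the share of all bivalent peaks than for the homeobox and bHLH genes. Without epiblast replicate 1 they were 6, 2 and 2, and 41 for the homeobox and paired-box list, and without ExE replicate 2 the Hox count was also 2.

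Among single members, Pax6, a paired-box factor of eye and brain, fell in H3K4me3 by 1.13 on the log2 scale (adjusted p = 0.000173) and Shh, the hedgehog ligand, by 0.97 (adjusted p = 0.00118). Hoxb1 fell by 1.44 (adjusted p = 2.77e-05). Stmn2, a tubulin-binding protein of neurons, was among the deepest, from 9.01 and 9.38 RPKM in epiblast to 1.12 and 1.38 in ExE (-2.47 ± 0.24, adjusted p = 5.4e-12), with Lamp5 (-2.42), Adcyap1 (-2.41) and Pde1c (-2.30). Tbx3 (-1.41 ± 0.24, adjusted p = 0.00163), Msx2 (-1.66 ± 0.23, adjusted p = 0.000609) and Irx1 (-1.18, adjusted p = 0.0042) differed from most of these lists by lower H3K27me3, called in every setting tried. Msx2 had 3.60 and 2.98 RPKM in epiblast and 0.664 and 0.727 in ExE.

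Of 24 peaks at primitive streak and gastrulation genes, H3K4me3 was lower at 10 (6 without epiblast replicate 1 or ExE replicate 2), near the 34.7% of all bivalent peaks, and higher at none (limma, 0 at an unadjusted p under 0.05, 2 with edgeR). For this list H3K27me3 was lower at 5 and higher at 1, where 7.70% and 3.53% of all bivalent peaks were. Lower H3K27me3 was called at 0 without epiblast replicate 1 (limma, 9 at an unadjusted p under 0.05 with all libraries, 10 with edgeR), at 1 without ExE replicate 2, at 2 without ExE replicate 3 and at 7 without epiblast replicate 2. T, the T-box factor of the primitive streak, differed in H3K4me3 by -1.41 ± 0.26 (adjusted p = 1.37e-05), Gsc, the organizer homeobox gene, by -1.44 (adjusted p = 2.43e-06), and Lefty2, a NODAL antagonist, by -1.17 (adjusted p = 0.000542). For ligands, receptors and antagonists of the WNT, BMP, FGF, hedgehog, NODAL and Notch pathways, 84 of 106 genes had a bivalent peak. Of their 86 peaks H3K4me3 was lower at 36 (21 without epiblast replicate 1), again near the share of all bivalent peaks, and higher at 2. H3K27me3 was lower at 9 and higher at 5, also near the 7.70% and 3.53% of all bivalent peaks. The H3K27me3 counts were 2 lower and 7 higher without epiblast replicate 1, 8 and 1 without epiblast replicate 2, 6 and 1 without ExE replicate 2, 5 and 7 without ExE replicate 3 and 5 and 18 with the block, and edgeR gave 11 peaks with higher H3K4me3. Dkk1, a secreted WNT antagonist, was lower in H3K27me3 (-1.26 ± 0.24, adjusted p = 0.00354).

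Lists for other cell types were smaller. Visceral endoderm genes had 8 peaks, with H3K27me3 lower at 5 (7.70% of all bivalent peaks were), among them Amn (-1.27, adjusted p = 0.00292), Foxa2 (-0.98, adjusted p = 0.0143) and Gata4 (-0.78, adjusted p = 0.0433), and H3K4me3 higher at 1, Amn (0.68, adjusted p = 0.0254), and lower at 1, Foxa1 (-1.02, adjusted p = 0.0005). Without ExE replicate 2, Foxa2 and Gata4 lost the H3K27me3 call and Amn that of H3K4me3. Without epiblast replicate 1, Foxa2 and Gata4 again lost H3K27me3, Gata4 also without ExE replicate 3, and Amn lost H3K4me3 without epiblast replicate 2 or ExE replicate 3. The list's count of lower H3K27me3 was 1 without epiblast replicate 1, without ExE replicate 2 or in the libraries of the contrast alone, 2 with the block and 3 without ExE replicate 3. These counts stand beside the visceral endoderm marker values given above. Summed H3K4me3 overlapped between tissues, while gene-body H3K36me3 was apart and higher in ExE at Amn, Cubn, Ttr, Apob, Hnf4a and Sox17. The part of such cells was not tested. Decidua and blood genes had 6 peaks with no call for H3K27me3 (limma, 1 lower at an unadjusted p under 0.05 and 1 with edgeR) and 3 with lower H3K4me3. Germline genes had 6 peaks with no H3K27me3 call (1 lower at an unadjusted p under 0.05, 2 with edgeR), and Sycp1, of the meiotic synaptonemal complex, was higher in H3K4me3 (0.96, adjusted p = 0.0108, not called without ExE replicate 3). Of 20 housekeeping genes only B2m had a bivalent peak.

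H3K36me3, which the rule did not use, differed little over the bivalent peaks themselves. In wild type it was higher in ExE at 27 peaks (0.359%, where 0.672% of all peaks were) and lower at 8 (0.106%, where 0.345% of all were) in limma. Without any 1 of the 8 libraries, 0 to 3 were higher and none lower (247 were lower at an unadjusted p under 0.05 with all libraries), while edgeR called 288 and 224. In matDKO/CAST 3 were higher (0.099% of all peaks), at Kcng1, at Zbtb10 and at chr11:63888501-63890000, named after their values were seen, and none lower (323 at an unadjusted p under 0.05, 2 with edgeR, 0.03% of all peaks), and without epiblast replicate 3 the counts were 110 and 63. The wild-type 27 included Tbx3, Id2, Bmp4, Klf5 and Amn, and Otx2 was among the 8. These calls were too few and too dependent on single libraries to describe the peaks as a group.

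Over gene bodies, where H3K36me3 follows transcription, the differences were clearer. Of 4273 genes of at least 5 kb with a bivalent start, 992 were higher in wild-type ExE (23.2%, where 38.1% of all 17031 genes were) and 680 lower (15.9%, where 8.33% of all were). Genes without a bivalent start gave 43.1% and 5.79%. The medians were 0.02 and 0.17, and that of all genes was 0.11. Among those called, 59.3% were higher, against 29.2% after median centring (612 and 1481), 26.1% with edgeR (616 and 1742), and 383 higher and 612 lower after quantile normalization, so the balance of directions depends on the scaling. The lower count was 405 without B6/CAST ExE replicate 1.

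The ExE class of the promoter went along with the gene body. Of 303 genes in the H3K4me3-only class, 232 were higher and 4 lower, with a median of 0.39. Of 3886 in the both-marks class, 755 were higher and 668 lower, with a median of 0.00. Of 82 in the H3K27me3-only class, 5 were higher and 6 lower. The difference between classes was not tested.

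Sfmbt2, a Polycomb-group gene imprinted in ExE, had gene-body H3K36me3 of 0.470, 0.431, 0.456 and 0.441 RPKM in the wild-type epiblast libraries and 1.80, 1.74, 1.32 and 1.39 in ExE. Klf5 had 0.780, 0.636, 0.873 and 0.937 against 3.00, 2.50, 1.71 and 1.99 (1.08, adjusted p = 0.000355). Neither gene overlapped between tissues. Peg10 (1.26), a retrotransposon-derived placental gene, Tbx3 (1.13), Sfmbt2 (1.11) and Pwwp2b (1.09) were the largest rises with Klf5. Cdx2 (0.96, adjusted p = 0.000579), Tead4 (0.92, adjusted p = 0.000222), Tfap2c (0.78, adjusted p = 0.00183) and Ddah1 (0.66, adjusted p = 0.000499) also rose.

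The deepest falls were Lbh (-0.88), Uchl1 (-0.83), Dact1 (-0.82), Otx2 (-0.81, adjusted p = 0.00176) and Cxcl12 (-0.80). Otx2 had 1.28, 1.00, 0.842 and 1.18 RPKM in epiblast and 0.271, 0.489, 0.376 and 0.468 in ExE, again without overlap. Fgfr2 (0.12, adjusted p = 0.0692) and T (-0.10, adjusted p = 0.539) did not pass. Cdx2, Tead4, Tfap2c, Klf5 and Ddah1 thus had lower promoter H3K27me3 in matDKO/CAST ExE and higher gene-body H3K36me3 in wild-type ExE.

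The parental alleles were compared in epiblast, from reads that carried a variant of either parent, to find bivalent promoters marked on a single allele. A peak was called imprinted where edgeR's quasi-likelihood test gave an adjusted p under 0.05 in both wild-type crosses with the same parent higher. For H3K4me3, 8 of 6116 bivalent peaks with enough reads were imprinted, and over all 20328 peaks 0.108% were. Of these, 4 were higher on the paternal allele (0.0787% of all) and 4 on the maternal (0.0295% of all). With the library as a block, which pairs the alleles of a library, the count was 14. It was 5 with DESeq2, 4 without B6/CAST replicate 1 and 0 without CAST/B6 replicate 2, which leaves replicate 3 with fewer allele-specific reads in that cross. Differences between strains were called at 27 bivalent peaks (0.841% of all).

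Plagl1, a zinc finger gene expressed from the paternal allele, had maternal and paternal H3K4me3 reads of 3 and 102 and of 1 and 92 in B6/CAST, and of 0 and 69 and of 1 and 13 in CAST/B6, at chr10:13089501-13092500. In matDKO/CAST they were 69 and 74 and 20 and 19. Nearly all wild-type reads were paternal, and the alleles were close to equal without oocyte methylation. The log2 differences were 5.58 (adjusted p = 9.51e-05) and 5.91 (adjusted p = 6.03e-05). The H3K27me3 peak over it, chr10:13085001-13096000, was paternal as well, with 5 and 71, 6 and 68, 17 and 169, and 7 and 131 reads, against 70 and 80 and 14 and 20 in matDKO/CAST.

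Airn, the paternally expressed antisense transcript of Igf2r, behaved like Plagl1 (chr17:12740001-12744000). Its H3K4me3 reads were 3 and 140, 0 and 86, 4 and 85, and 1 and 25 in wild type and 88 and 115 and 21 and 27 in matDKO/CAST. H3K27me3 there had 2 and 16, 2 and 20, 5 and 29, and 2 and 16 reads, also mostly paternal. At both promoters the marks lay on the same allele in wild type.

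Grb10, an adaptor protein gene, had its marks on opposite alleles. At chr11:12031501-12039500, H3K4me3 reads were 78 maternal and 4 paternal, 56 and 4, 71 and 4, and 22 and 1 (log2 differences -3.96, adjusted p = 0.00136, and -4.21, adjusted p = 2.13e-05). H3K27me3 over chr11:12010501-12050500 had 27 and 358, 31 and 300, 19 and 741, and 15 and 506. In matDKO/CAST H3K4me3 was 8 and 11 and 2 and 4, few reads, and H3K27me3 348 and 274 and 65 and 52. Grb10 met the bivalent rule, therefore, with H3K4me3 mostly maternal and H3K27me3 mostly paternal.

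Cdkn1c, a cell cycle inhibitor, and Phlda2, a placental growth gene, shared the pattern on chromosome 7. Their H3K4me3 was maternal, with 129 and 19, 102 and 22, 67 and 8, and 17 and 9 reads at Cdkn1c and 144 and 38, 91 and 48, 101 and 18, and 10 and 8 at Phlda2. The H3K27me3 peak over both, chr7:143298501-143509000, had 482 and 2175, 456 and 1881, 742 and 4398, and 407 and 2322 reads, and 2291 and 2173 and 489 and 538 in matDKO/CAST. In matDKO/CAST, H3K4me3 was 35 and 25 and 15 and 18 at Cdkn1c, and 58 and 32 and 16 and 12 at Phlda2.

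The remaining 3 had imprinted H3K4me3 without an imprinted H3K27me3 call, for different reasons. H19, a non-coding RNA, kept its maternal bias in matDKO/CAST, with 262 and 13, 204 and 18, 136 and 4, and 40 and 4 reads in wild type and 171 and 10 and 55 and 8 in matDKO/CAST. Peg10/Sgce had 24 and 104, 40 and 81, 12 and 87, and 4 and 22 in wild type and 83 and 59 and 19 and 14 in matDKO/CAST. The H3K27me3 peak inside it, chr6:4743501-4749500, was not tested, since no allele of a wild-type library reached 20 reads. Its reads were mostly paternal in wild type, 1 and 9, 1 and 10, 3 and 16, and 1 and 11, and 13 and 13 and 2 and 2 in matDKO/CAST. Magel2 had 38 and 128, 25 and 114, 1 and 130, and 6 and 13, and then 79 and 85 and 21 and 24. The H3K27me3 peaks over Magel2 and H19 were tested and did not pass, with paternal shares in wild type of 38.3% to 46.1% and 40.4% to 61.0%. H19 was the exception among the 8 in keeping all libraries on the same side by a wide margin.

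**Figure D5:**
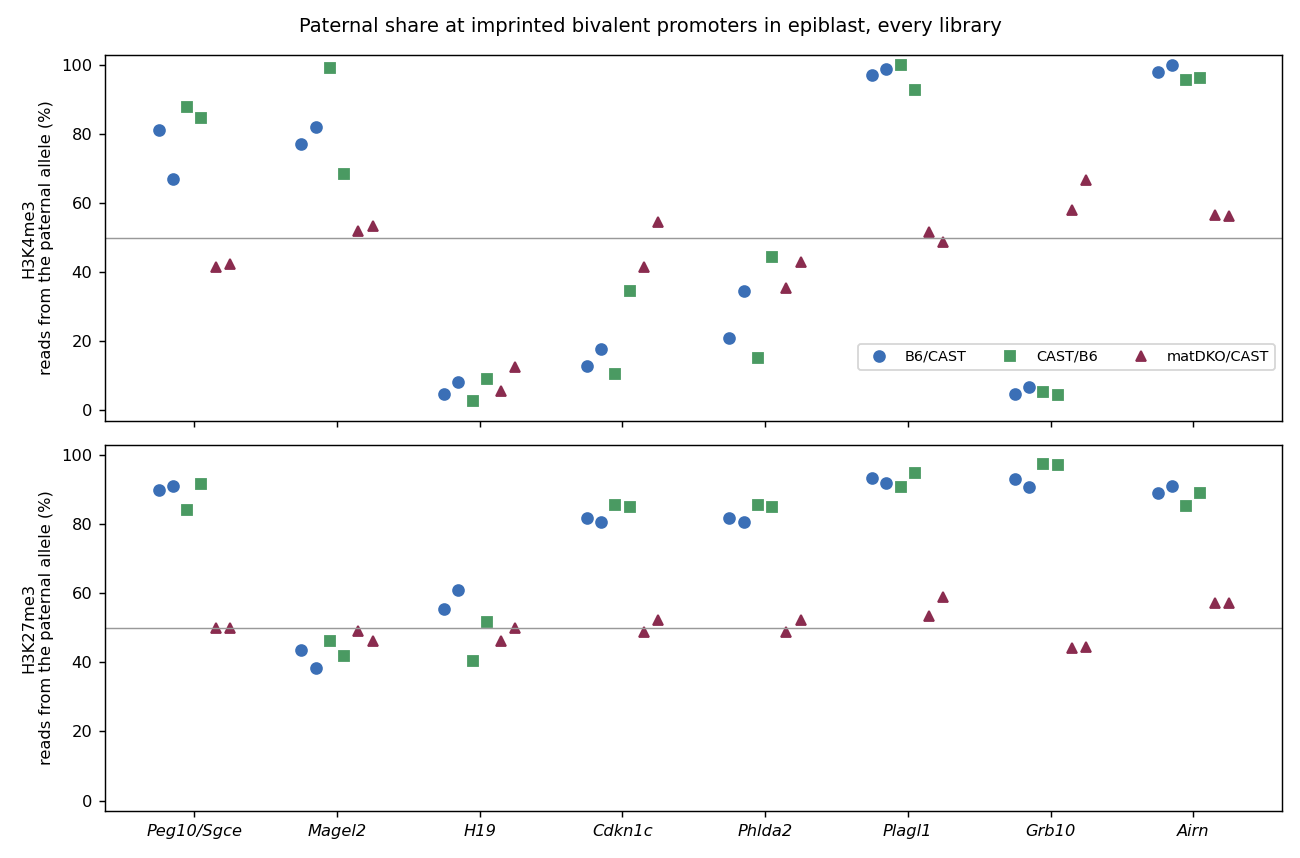
Share of allele-specific reads from the paternal allele (%) in each epiblast library, for H3K4me3 (upper) and for the H3K27me3 peak over it (lower), at the 8 imprinted bivalent promoters. Colours and shapes give the cross, and the grey line marks 50%. In wild type, Plagl1, Airn and Peg10/Sgce sit high for both marks, Grb10, Cdkn1c and Phlda2 low for H3K4me3 and high for H3K27me3, and the matDKO/CAST points lie nearer to 50% than all wild-type points for H3K4me3 at all but Phlda2 and H19.

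Of H3K27me3 peaks, 5522 with enough reads overlapped a bivalent peak and 19 of them were imprinted (0.325% of all 8924). They held 38 bivalent peaks, and 7 lay on chromosome 7 and 5 on chromosome 17. The paternal allele was higher at 16 (0.28% of all) and the maternal at 3 (0.0448% of all), at Zdbf2, at Dlk1 and at chr9:89861001-89894500. With the library as a block 31 were imprinted, 32 without B6/CAST replicate 2 and 12 without CAST/B6 replicate 1. In matDKO/CAST the maternal excess was still present at chr9:89861001-89894500, with 292 and 63 and 66 and 14 reads, and at Dlk1, with 1035 and 298 and 214 and 75. At Zdbf2 it was smaller than in wild type, with 115 and 82 and 28 and 15 reads, against 606 and 112, 584 and 89, 1260 and 174, and 875 and 113. Strain differences were called at 48 (1.01% of all).

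Finally, the ExE of matDKO/CAST was compared with that of B6/CAST, the wild-type cross of the same direction, to see what the bivalent peaks lost or gained there when oocyte methylation was absent. H3K27me3 was higher at 2 (0.009% of all peaks) and lower at 4 (0.015% of all) in limma. The higher ones, named after their values were seen, were Zp3, with 1.77 and 1.58 RPKM in the B6/CAST libraries against 8.45 and 16.7 in matDKO/CAST (2.51 ± 0.33, adjusted p = 0.000898), and Mt1, with 0.489 and 0.496 against 1.54 and 3.73 (1.57 ± 0.28, adjusted p = 0.0415). Inputs were also higher there in matDKO/CAST, 3.18 and 1.45 against 0.536 and 0.445 at Zp3 and 0.899 and 0.637 against 0.422 and 0.513 at Mt1. Zp3 supplies the promoter of the Cre transgene. The 4 lower peaks, at chr2:155017501-155023500, chr3:78966001-78968000, chr4:112978501-112980500 and chr13:119596501-119599000, hold no named start, and the chromosome 4 peak had 0 in every matDKO/CAST library, inputs included. Inputs were also lower in matDKO/CAST at the chromosome 2 peak, 0.176 and 0.157 against 0.341 and 0.404 in B6/CAST. They were 0.0171 and 0.0732 against 0.588 and 1.01 at the chromosome 13 peak, and overlapped at the chromosome 3 peak. Leaving out a library gave 0 to 2 higher and 1 to 2 lower.

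H3K4me3 was higher at 2 bivalent peaks (0.03% of all), chr4:145640001-145642000 and chr12:18135501-18137000, and lower at 24 (0.204% of all). Inputs were higher in matDKO/CAST at both higher peaks. They were 0.179 and 0.274 against 0.121 and 0.105 in B6/CAST at the first, and 0.308 and 0.439 against 0.156 and 0.105 at the second. The peaks given above with lower H3K27me3 were among the 24. The part of such input differences in these calls was not tested. Of the lower ones, 8 lay on chromosome 7 and 8 on chromosome 17, and 11 held a named start. Those given here were also named after their values were seen. Ascl2 had 6.42 and 4.75 RPKM in the B6/CAST libraries against 1.12 and 1.45 in matDKO/CAST (-1.76, adjusted p = 2.44e-07). Phlda2 had 5.59 and 4.65 against 1.12 and 1.39 (-1.68, adjusted p = 1.89e-06), and Slc22a18 4.09 and 2.16 against 0.202 and 0.396 (-2.14). These genotypes did not overlap at any of the 3. Kcnq1 (-1.52), Cdkn1c (-1.43), Slc22a3 (-1.40), Igf2r (-1.28), T and Pde10a (-1.14 each) and Grb10 (-1.13) were also lower. The lower count was 8 without B6/CAST ExE replicate 1 and 14 without any of the other 3 libraries.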

How the data were processed

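Ultra-low-input native ChIP-seq libraries from micrococcal nuclease-treated chromatin were trimmed by the authors with Trim Galore 0.4.4, aligned with Bowtie2 2.3.2 to GRCm38 with B6 and CAST variants masked, and divided by allele with SNPsplit (versions from the submitters' processing notes). For matDKO/CAST, whose mothers carried some 129 sequence, the authors dropped variants common to 129 and CAST, mapped reads left without a parent in a second round against 129S1/CAST, and counted those of 129 type as maternal. Antibodies and input each received a portion of the same pool. The deposited tables used here held RPKM per 1 kb window, made by the authors in SeqMonk without subtracting inputs, and raw counts of maternal and paternal reads per peak. The deposited peak lists, called by the authors with chromstaR in 500 bp bins for each cross and tissue, gave start and end with a score of 0 throughout, so no height or p-value could be used. Low RPKM values were whole multiples of 1 read, which gave the depth of each library.

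RPKM was averaged over the windows of each peak or gene body and tested as log2(RPKM + 0.5) with limma 3.58.1 (trend, all 12 libraries of a mark, group means) in R 4.3.3, with Benjamini-Hochberg adjustment over all autosomal peaks, or over all autosomal protein-coding genes of at least 5 kb. A difference of log2(RPKM + 0.5) understates the change of low values. Members were chosen on wild-type epiblast peaks of H3K4me3 and H3K27me3, so the tissue contrast of these marks was tested only in matDKO/CAST. Allelic counts were tested in each wild-type cross with edgeR 4.0.16 (glmQLFTest, TMM) over peaks with 20 reads in at least 1 allele column. No filter on low values was applied to RPKM, so all 7529 members entered each test. The fits of total signal and of allelic counts were tried on simulated data. Alternatives used other pseudocounts, a mean RPKM of at least 0.5, median centring, quantile normalization, edgeR on the recovered reads, a replicate block, the libraries of a contrast alone, overlap-weighted means and each library left out in turn. DESeq2 1.42.0, library totals and no filter were the alternatives for alleles.

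Named genes were those with a start site in a member that were among the 8 largest called rises or falls of H3K27me3 or H3K4me3 in matDKO/CAST, the 5 largest called rises or falls of gene-body H3K36me3, the 5 members highest in H3K27me3, the 5 longest, the imprinted ones, or, in each gene list, the 5 highest in H3K27me3 and those called. Members, lists and tests were chosen with earlier results of these data known. Some members that meet the rule, those on chromosome 18 among them, are counted but not named here. Promoter sequences were matched by symbol to RefSeq windows of 250 bases upstream, of which 281 named members had one. Maternal and paternal reads come from the same chromatin, which pairs them within a library, and the counts with that block are given beside the result.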

Additional observations from a re-analysis of the deposited data

How the results depend on the processing

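No called tissue difference of a named promoter changed direction under any alternative. With 2 pools per group, calls depended on single libraries, and inputs were not subtracted. H3K27me3 in matDKO/CAST (266 higher, 580 lower) gave 516 higher at a mean RPKM of at least 0.5, 167 and 893 after median centring, 772 and 1424 after quantile normalization, 1422 lower with edgeR, 68 and 269 in the libraries of the contrast alone, and 8 to 503 higher and 324 to 624 lower with a library left out. Without chromosome 17, an alternative added after seeing the data, it gave 235 and 533. H3K4me3 (141 higher) gave 271 after median centring, 591 after quantile normalization, 842 with edgeR and 59 to 138 with a library left out. Replicate numbers were shared between tissues but did not pair them, since deviations of same-numbered libraries correlated at -0.15 to 0.42. With the replicate block, H3K27me3 gave 1698 higher and 387 lower, a turned balance, H3K4me3 426 higher, wild-type H3K36me3 at peaks 17 and 3 and matDKO/CAST H3K36me3 0. In matDKO/CAST, epiblast and ExE share only number 2 for H3K27me3 and H3K4me3, so the block leaves there the difference of the 2 libraries with that number, with its error from the wild-type libraries. No paired analysis was possible for matDKO/CAST against B6/CAST in ExE because the block was set within each cross and so pairs no libraries of different crosses.

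H3K36me3 at peaks in wild type (27 higher, 8 lower) gave 10 and 1 at a pseudocount of 0.1, 75 and 20 at a mean of at least 0.5, 17 and 16 after quantile normalization, 288 and 224 with edgeR, 17 and 5 with overlap-weighted means, 121 and 44 in the contrast's libraries alone, and 0 to 3 and 0 with a library left out. In matDKO/CAST (3 and 0) it gave 1 at a pseudocount of 1, 25 at a mean of at least 0.5, 1 after median centring, 0 after quantile normalization and in the contrast's libraries alone, 10 and 2 with edgeR, and 0 to 110 and 0 to 63 with a library left out. Gene bodies (992 and 680) gave 190 lower at a mean of at least 0.5, 612 and 1481 after median centring, 383 higher after quantile normalization, 616 and 1742 with edgeR, and 742 to 877 and 405 to 622 with a library left out. The cause of these shifts was not tested.

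For matDKO/CAST against B6/CAST in ExE, H3K27me3 (2 and 4) gave 1 higher at a pseudocount of 1 and after median centring, 13 after quantile normalization, and 0 to 2 and 1 to 2 with a library left out. H3K4me3 (2 and 24) gave 1 higher at a pseudocount of 0.1 and with overlap-weighted means, 4 after median centring, 1 and 15 after quantile normalization, 5 with edgeR, and 0 to 3 and 8 to 14 with a library left out. Imprinted H3K4me3 (8) gave 5 with DESeq2, 14 with the library as a replicate block and 0 to 8 with a library left out, and imprinted H3K27me3 (19) gave 31 and 12 to 32. Peaks in either ExE cross left 236 members without H3K27me3 and 444 without H3K4me3. Of the named promoters called, 19 of 64 for H3K27me3 and 117 of 193 for H3K4me3 were called in every setting.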
